A study of Mus musculus with 6 samples.

Results

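The genes described here encode the epidermal growth factor (EGF) receptor family of the colon: 6 ligands (Areg, Ereg, Hbegf, Tgfa, Btc and Epgn), 3 receptors (Egfr, Erbb2 and Erbb3) and the receptor inhibitor Lrig1. They were chosen by gene symbol, and every probe set of the array that the platform annotation assigns to 1 of these symbols was taken. This gave 22 probe sets for 9 of the 10 genes, out of 45037 probe sets and 18193 genes measured. No probe set carried the symbol Areg in the annotation used, so Areg, which encodes amphiregulin, was not analysed here. The receptor genes and Lrig1 had 10 and 3 probe sets, and the ligand genes had 9.

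The samples were 6 colon RNA samples from untreated mice of a background mixed from CD-1, 129 and C57BL/6, each hybridised to 1 one-colour Affymetrix mouse array: 3 control mice and 3 HDAC2 KO mice. In the HDAC2 KO mice, floxed Hdac2 was removed by villin-Cre, a recombinase made in the epithelium of the gut, so the other cells of the colon keep the gene. The labels used here give neither the age of the mice nor the alleles that the controls carried. The titles name HDAC2 alone, whereas the description of the knockout samples also names HDAC1, and the source names epithelium whereas the extraction protocol speaks of colon. The source names give 1 numbered mouse per array, and nothing else describes how the replicates were taken, so p-values measure only the spread between these samples, which may in part be technical.

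EGF receptor ligands are made as membrane-anchored precursors that metalloproteases, ADAM17 above all, cut to release the soluble growth factor. Ligand binding pairs EGFR with itself or with ErbB2 or ErbB3, and the pair signals through RAS and ERK and through PI3 kinase. In the intestine this signalling is known for supporting the division of crypt cells and the repair of the surface after injury, and Lrig1 and other feedback inhibitors keep it in bounds.

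The targeted gene, Hdac2, was checked first. Its probe set of highest signal, 1445684_s_at, had RMA log2 signals of 10.40, 10.37 and 10.43 in control and 10.21, 10.12 and 10.24 in HDAC2 KO. Every HDAC2 KO array lay below every control array, but the difference of -0.21 (SE 0.051) had a limma adjusted p of 0.0768 over all 45037 probe sets and was not called. Probe set 1449080_at of Hdac2 differed by -0.22 (SE 0.084, limma adjusted p = 0.253), with groups that did not overlap. The dimmer 1439704_at differed by -0.078 (SE 0.15, adjusted p = 0.867), with overlapping groups. The mean of the Hdac2 probe sets differed by -0.17 (SE 0.053, adjusted p = 0.114). Hdac2 was called in 3 of 14 alternatives, among them the test of 1 probe set per gene above a signal filter (adjusted p = 0.00893). Whether its probes lie in the deleted exons was not analysed here. Of 12 epithelial marker genes, all measured, 0 lay below the 40th percentile of signal over all probe sets. The same held for 7 smooth muscle markers, so RNA of muscle was present beside that of epithelium.

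Among the 22 probe sets, 1 was higher in HDAC2 KO and 0 were lower at a limma adjusted p under 0.05, the threshold for a call throughout. That is 4.55% of the members, against 3.8% of all probe sets (1.72% higher and 2.08% lower), so the share called was near the background. The 1 called probe set belonged to Hbegf. Groups did not overlap for 6 of the 22 probe sets, or 27.3%, against 23.2% of all probe sets. Of these 6, the 4 that were higher in HDAC2 KO were probe sets of the ligands Hbegf, Tgfa and Epgn, and the 2 that were lower were probe sets of Egfr and Lrig1. The median difference, HDAC2 KO minus control, was 0.099 on the log2 scale over the 9 ligand probe sets, 0.018 over the 10 receptor probe sets and -0.012 over the 3 of Lrig1, beside 0.0041 over all probe sets. With the probe set of highest signal standing for each gene, 0 of 9 member genes were called, against 5.09% of all genes. At an unadjusted limma p under 0.05, 4 member probe sets passed, all higher: both of Hbegf, that of Epgn and 1421943_at of Tgfa; 0 of the receptors and 0 of Lrig1 did. Of all probe sets 16.4% passed that threshold in either direction and 8.28% in the higher direction. By the probe set of highest signal 3 of the 9 genes passed, all higher, against 19% of all genes in either direction and 10.1% in the higher direction.

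**Figure D1:**
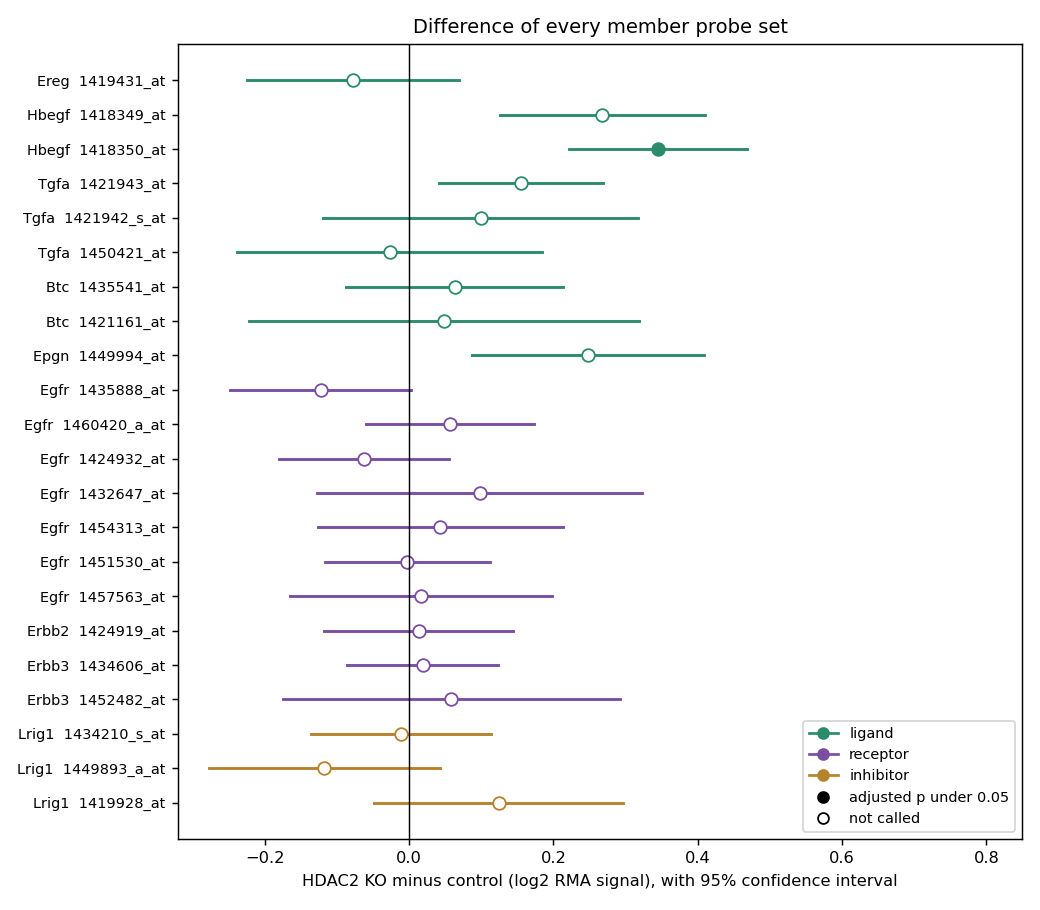
Difference between HDAC2 KO and control in log2 RMA signal (x axis) for each of the 22 probe sets (y axis), with 95% confidence intervals from limma. Points are coloured by role and filled where the adjusted p was under 0.05; the only filled point is the Hbegf probe set 1418350_at at 0.34.

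Hbegf encodes heparin-binding EGF-like growth factor, a ligand of EGFR and ErbB4 that is induced in injured epithelium. Its probe set 1418350_at read 8.57, 8.62 and 8.52 in control and 8.88, 8.97 and 8.89 in HDAC2 KO. All HDAC2 KO arrays lay above all control arrays. The rise was 0.34 on the log2 scale (SE 0.052, n = 3 arrays per group, limma adjusted p = 0.0131), or 1.27-fold, with a 95% interval of 1.17 to 1.38. The other Hbegf probe set, 1418349_at, read 8.62, 8.70 and 8.62 in control and 8.97, 8.95 and 8.81 in HDAC2 KO. Its groups did not overlap either, and its difference of 0.27 (SE 0.061, adjusted p = 0.0620) was not called. Both probe sets were designed from the same sequence record, per the platform annotation, so they are repeat measurements of 1 transcript and not separate evidence.

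The Hbegf 1418350_at call did not hold in 2 of 13 alternatives. Leaving out control replicate 1 gave a limma adjusted p of 0.0677, and leaving out control replicate 3 gave 0.0600, with differences of 0.35 and 0.32. The probe set 1418349_at was called with either signal filter, with an intensity trend, with array weights and without HDAC2 KO replicate 3, and its difference stayed between 0.24 and 0.32 over the alternatives. The mean of both Hbegf probe sets, which includes the called one, differed by 0.31 (SE 0.047, adjusted p = 0.00823).

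**Figure D2:**
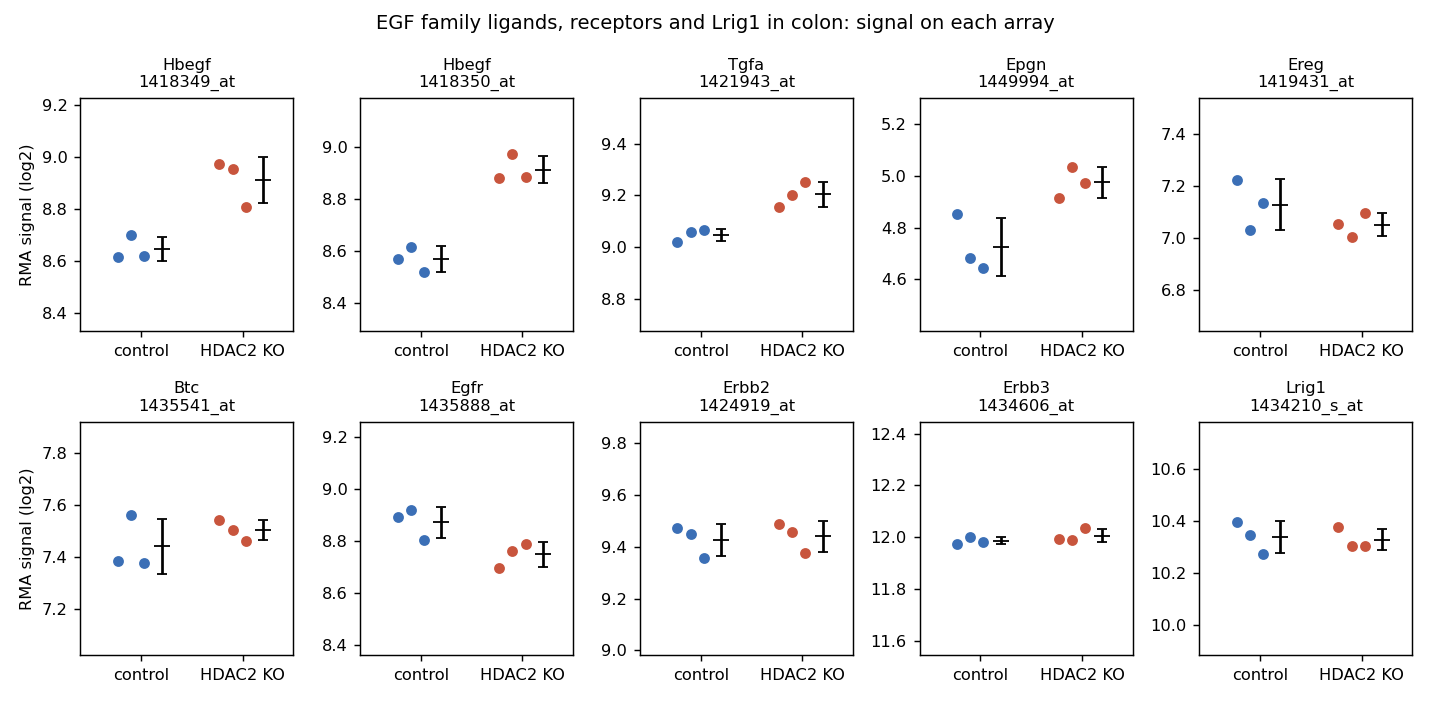
RMA log2 signal (y axis, each panel spanning the same range) of 10 probe sets on the 3 control arrays (blue) and the 3 HDAC2 KO arrays (red), with the group mean and SD in black. HDAC2 KO points lie above all control points for Hbegf, Tgfa and Epgn, below them for Egfr, and among them for the others.

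Tgfa encodes transforming growth factor alpha, an EGFR ligand made by many epithelia. Its probe set of highest signal, 1421943_at, read 9.02, 9.06 and 9.07 in control and 9.16, 9.20 and 9.25 in HDAC2 KO. The groups did not overlap, and the spread within each was small (SD 0.024 and 0.049, n = 3). The difference of 0.16 (SE 0.049), a fold of 1.11 with a 95% interval of 1.03 to 1.20, had a limma adjusted p of 0.162 and was not called. Tgfa was called in 2 of 15 alternatives, the test of 1 probe set per gene above the 40th percentile (adjusted p = 0.0246) and the fit with an intensity trend and robust variances (adjusted p = 0.0388). The probe sets 1421942_s_at and 1450421_at of the same gene, with lower signal, differed by 0.099 (SE 0.093) and -0.027 (SE 0.090), and their groups overlapped. All 3 derive from the same sequence record but did not give 1 direction, and their mean differed by 0.076 (SE 0.054, adjusted p = 0.504).

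Epgn encodes epigen, an EGFR ligand of low affinity best known from skin and other squamous epithelia. Its single probe set, 1449994_at, read 4.85, 4.68 and 4.64 in control and 4.92, 5.03 and 4.97 in HDAC2 KO. The groups did not overlap, though control replicate 1 lay only just below the lowest HDAC2 KO array. The difference of 0.25 (SE 0.069, limma adjusted p = 0.118) was not called in the fit of all probe sets or in any of the 13 alternatives that kept the probe set. Its mean signal lay at the 27.8th percentile of all probe sets, where RMA compresses differences, and without detection calls it cannot be said whether the transcript was above background. Markers of squamous epithelium, which could come from the anal margin, are given with the other cell type markers below.

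The promoters of Tgfa and Epgn are shown because 1421943_at of Tgfa and the single Epgn probe set had non-overlapping, higher groups. Both Hbegf probe sets did as well, but the Hbegf promoter is not printed here. The other Tgfa probe sets had overlapping groups, and groups did not overlap for 23.2% of all probe sets, in either direction. Each printed promoter runs from 250 bases before to 50 after the annotated start from RefSeq, build GRCm38.p6. It is given 5′ to 3′ on the strand of the gene, with matches to the motifs searched in capitals. That of Tgfa spans chr6:86194972-86195271 on the plus strand, and that of Epgn chr5:91027267-91027566 on the plus strand.
Tgfa: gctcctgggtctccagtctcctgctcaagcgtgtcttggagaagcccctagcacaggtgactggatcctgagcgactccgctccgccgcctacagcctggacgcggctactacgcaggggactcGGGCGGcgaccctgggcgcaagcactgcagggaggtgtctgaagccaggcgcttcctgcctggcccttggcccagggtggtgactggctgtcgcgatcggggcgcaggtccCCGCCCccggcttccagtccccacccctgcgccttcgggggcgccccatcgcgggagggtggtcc
Epgn: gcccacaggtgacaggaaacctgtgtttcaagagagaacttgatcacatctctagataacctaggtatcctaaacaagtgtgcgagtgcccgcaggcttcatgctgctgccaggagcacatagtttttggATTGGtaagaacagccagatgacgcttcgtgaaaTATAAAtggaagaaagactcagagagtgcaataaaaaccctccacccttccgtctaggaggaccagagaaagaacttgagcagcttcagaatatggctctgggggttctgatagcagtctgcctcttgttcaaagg

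The motifs were searched on both strands. The GC box (GGGCGG) occurs in 35.7% of 32851 promoters in the table, the TATA box (TATAAA) in 13.6%, the CCAAT box (CCAAT) in 37.4%, the AP-1 motif (TGANTCA) in 7.81% and the cyclic AMP response element (TGACGTCA) in 1.79%. In the Tgfa window the capitals mark 2 GC boxes. In the Epgn window they mark the letters of a reverse CCAAT box, from base -120, and of a TATA box, from base -86 of the annotated start. Whether these letters act as promoter elements was not tested. Neither window held the letters of the AP-1 motif or of the cyclic AMP response element. The windows differ in base composition, with 70.7% G and C and 24 CpG in Tgfa against 47.3% and 5 CpG in Epgn, where the median promoter had 52.7% and 7. The promoter table was used for 6 of the 9 measured members.

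The other ligand genes showed overlapping groups. Ereg, encoding epiregulin, a ligand of EGFR and ErbB4, read 7.22, 7.03 and 7.13 in control and 7.05, 7.01 and 7.10 in HDAC2 KO. Its difference was -0.078 (SE 0.063, limma adjusted p = 0.623), with a 95% interval of -0.22 to 0.069. Btc, encoding betacellulin, which binds the same 2 receptors, read 7.38, 7.56 and 7.38 in control and 7.54, 7.50 and 7.46 in HDAC2 KO on probe set 1435541_at. Its difference was 0.063 (95% interval -0.087 to 0.21, adjusted p = 0.710). The second Btc probe set, 1421161_at, lay near the low end of the array, at the 12.7th percentile, and differed by 0.048 (SE 0.12).

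Epgn, Ereg, Areg and Btc follow each other directly among the protein-coding genes of mouse chromosome 5 in the RefSeq order, between Mthfd2l and Parm1. The measured members of this cluster did not share a direction: Epgn was at 0.25, Ereg at -0.078 and Btc at 0.063. On the Epgn side, Mthfd2l, a mitochondrial folate enzyme gene, differed by 0.16 (SE 0.052, limma adjusted p = 0.186), with groups that did not overlap. The next genes on that side, for the neutrophil chemokines, gave 0.27 for Cxcl1 (SE 0.076, adjusted p = 0.124) and -0.12 for Cxcl2 (SE 0.072, adjusted p = 0.486). The groups of Cxcl1 did not overlap, and those of Cxcl2 did. On the Btc side, Parm1 differed by -0.011 and Rchy1 by -0.072, and Odaph had no named probe set. By the probe set of highest signal for each gene, limma called 0 of the 5 measured neighbours. At an unadjusted limma p under 0.05 Cxcl1 and Mthfd2l passed by that probe set, beside 19% of all genes. Cxcl1 was called in 3 of 14 alternatives. The mean of its probe sets differed by 0.54 (SE 0.060, limma adjusted p = 0.00193), more than its probe set of highest signal. The other Cxcl1 probe sets are not shown here. Mthfd2l was called in 1 of 15. The mean of the Mthfd2l probe sets differed by 0.060 (SE 0.038, limma adjusted p = 0.435), less than its probe set of highest signal.

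**Figure D3:**
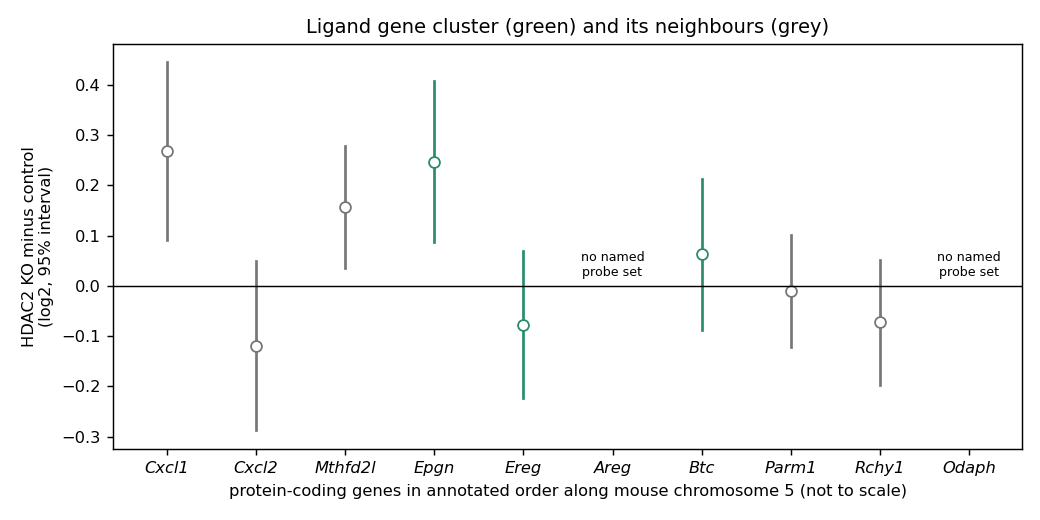
Difference between HDAC2 KO and control (y axis, log2 RMA signal, with 95% intervals) for the protein-coding genes around the ligand cluster of chromosome 5, in annotated order and not to scale (x axis). Each gene is drawn by its probe set of highest signal. Epgn at 0.25 and Cxcl1 at 0.27 lie highest, and Ereg and Btc have intervals that include 0.

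None of the 10 receptor probe sets was called. Egfr, the receptor of all the ligands above, had 7 probe sets with differences from -0.12 to 0.098, of which 0 were called. The probe set of highest signal, 1435888_at, read 8.89, 8.92 and 8.80 in control and 8.70, 8.76 and 8.79 in HDAC2 KO. The groups did not overlap, by a narrow gap between control replicate 3 and HDAC2 KO replicate 3, and the difference was -0.12 (SE 0.054, limma adjusted p = 0.319). The next probe sets by signal went in different directions, with 0.057 (SE 0.050) for 1460420_a_at and -0.062 (SE 0.050) for 1424932_at. The mean over the gene's 7 probe sets differed by 0.0040 (SE 0.039, adjusted p = 0.971), so the direction seen at 1435888_at was not that of the gene's probe sets together. Of the 7, 1457563_at lay at the 1.70th percentile of signal and carries little information.

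Erbb2 encodes the co-receptor that has no known ligand of its own. It read 9.47, 9.45 and 9.36 in control and 9.49, 9.46 and 9.37 in HDAC2 KO. The groups covered almost the same range, and the difference was 0.014 (SE 0.056, limma adjusted p = 0.944), with a 95% interval of 0.922-fold to 1.11-fold. Erbb3 encodes a receptor with a weak kinase that docks PI3 kinase. On probe set 1434606_at it read 11.98, 12.00 and 11.98 in control and 11.99, 11.99 and 12.03 in HDAC2 KO. That probe set lay at the 97.9th percentile of signal and was the steadiest control measurement of all 22 (SD 0.014). Its difference was 0.019 (SE 0.045, adjusted p = 0.894), with a 95% interval of 0.943-fold to 1.09-fold. The dim second Erbb3 probe set, 1452482_at, differed by 0.059 (SE 0.10).

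Lrig1, which promotes the degradation of ErbB receptors and marks a population of intestinal stem cells, was read by 3 probe sets that did not share a direction. The one of highest signal, 1434210_s_at, read 10.40, 10.35 and 10.28 in control and 10.38, 10.30 and 10.31 in HDAC2 KO, with overlapping groups and a difference of -0.012 (SE 0.053, limma adjusted p = 0.951). Probe set 1449893_a_at read 10.11, 10.05 and 10.05 in control and 10.03, 9.81 and 10.02 in HDAC2 KO. Its groups did not overlap, and HDAC2 KO replicate 2 lay farthest down. The difference of -0.12 (SE 0.068, adjusted p = 0.469) shrank to -0.047 without that array. The third, 1419928_at, lay at the 36.4th percentile and differed by 0.12 (SE 0.074, adjusted p = 0.480). Levels are not compared between probe sets or genes here, because probes differ in how strongly they bind.

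The genes around the receptors were taken from 6 lists of 90 genes, of which 84 had a named probe set. In these lists 1 gene was higher and 1 lower, or 2.38%, against 5.09% of all genes, and the median difference was -0.0033, beside 0.0062 over all genes. Of 6 other ErbB ligands and receptors (Egf, Nrg1, Nrg2, Nrg3, Nrg4 and Erbb4), 0 were called by limma, and the list median was 0.11. At an unadjusted limma p under 0.05, 1 of them, Egf, passed, beside 19% of all genes. Egf itself, the founding ligand, differed by 0.12 (SE 0.045, limma adjusted p = 0.235), with groups that did not overlap. Nrg1, Nrg3, Nrg4 and Erbb4 lay below the 40th percentile of signal.

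Ligand processing was read by 12 genes, of which 1 was called lower, beside 5.09% of all genes called in either direction. Cnih4 belongs to the cornichon family, whose Drosophila founder carries the TGF-alpha-like ligand Gurken out of the endoplasmic reticulum. It read 11.01, 11.06 and 10.99 in control and 10.77, 10.71 and 10.72 in HDAC2 KO. The groups lay well apart, and it fell by 0.29 on the log2 scale (SE 0.048, limma adjusted p = 0.0197), or 1.22-fold. Leaving out any array other than HDAC2 KO replicate 2 ended the Cnih4 call (adjusted p between 0.0576 and 0.0949), as did blocking on the replicate number (adjusted p = 0.0782). Adam17, the main sheddase of Hbegf and Tgfa, read 9.45, 9.48 and 9.38 in control and 9.31, 9.21 and 9.27 in HDAC2 KO. The groups did not overlap, and the difference of -0.17 (SE 0.053, adjusted p = 0.152) was not called. Adam17 was called lower in 3 of 15 alternatives, among them the mean of its probe sets (-0.24, adjusted p = 0.0241). Rhbdf2, which encodes iRhom2, the escort of ADAM17 to the cell surface, differed by 0.075 (SE 0.054, adjusted p = 0.572).

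Downstream of the receptors, 0 of 27 adaptor and signal transduction genes, 0 of 15 genes of receptor inhibition and degradation and 0 of 10 ERK feedback inhibitors were called by limma. At an unadjusted limma p under 0.05 the counts were 3, 2 and 1, beside 19% of all genes. The largest differences of the transduction list were 0.21 for the docking protein gene Gab2 (SE 0.051, limma adjusted p = 0.0762) and -0.21 for the adaptor gene Nck1 (SE 0.052, adjusted p = 0.0849). Errfi1, which encodes the EGFR inhibitor MIG6, read 10.43, 10.44 and 10.39 in control and 10.59, 10.58 and 10.55 in HDAC2 KO, a difference of 0.15 (SE 0.045, adjusted p = 0.139) with groups that did not overlap. Cblb, a ubiquitin ligase that marks the receptor for degradation, differed by -0.18 (SE 0.057, adjusted p = 0.164). Over 15 alternatives Gab2 was called in 4, and Nck1, Errfi1 and Cblb in 3 each; the means of the probe sets of Gab2 and Nck1 were nearer 0, at 0.12 and -0.13. Among ERK feedback genes, the phosphatase gene Dusp6 differed by 0.077 (SE 0.048, adjusted p = 0.506) and Dusp7 by -0.18 (SE 0.051, adjusted p = 0.133). As for Errfi1, groups did not overlap for Gab2 and Dusp6, in the higher direction, and for Nck1, Cblb and Dusp7, in the lower direction. The same held for 23.2% of all probe sets, in either direction.

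Of 14 genes known to respond to ERK, 1 was called higher, beside 5.09% of all genes called in either direction. Egr1, an early-response transcription factor, read 9.96, 9.90 and 9.87 in control and 10.29, 10.24 and 10.20 in HDAC2 KO. The groups lay apart, and the rise was 0.33 (SE 0.051, limma adjusted p = 0.0133), or 1.26-fold, close in size to that of Hbegf. The Egr1 call did not hold in 3 alternatives, with an adjusted p of 0.0692 once control replicate 2 was left out, 0.0622 for control replicate 3 and 0.0608 for HDAC2 KO replicate 1. Ier3, a stress-response gene, differed by 0.21 (SE 0.045, adjusted p = 0.0516), was not called in the fit of all probe sets and was called in 5 of 15 alternatives. Myc went the other way by -0.23 (SE 0.059, adjusted p = 0.0945), and was called in 4 of 15 alternatives. The list as a whole had a median of 0.053 and members on both sides of 0.

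**Figure D4:**
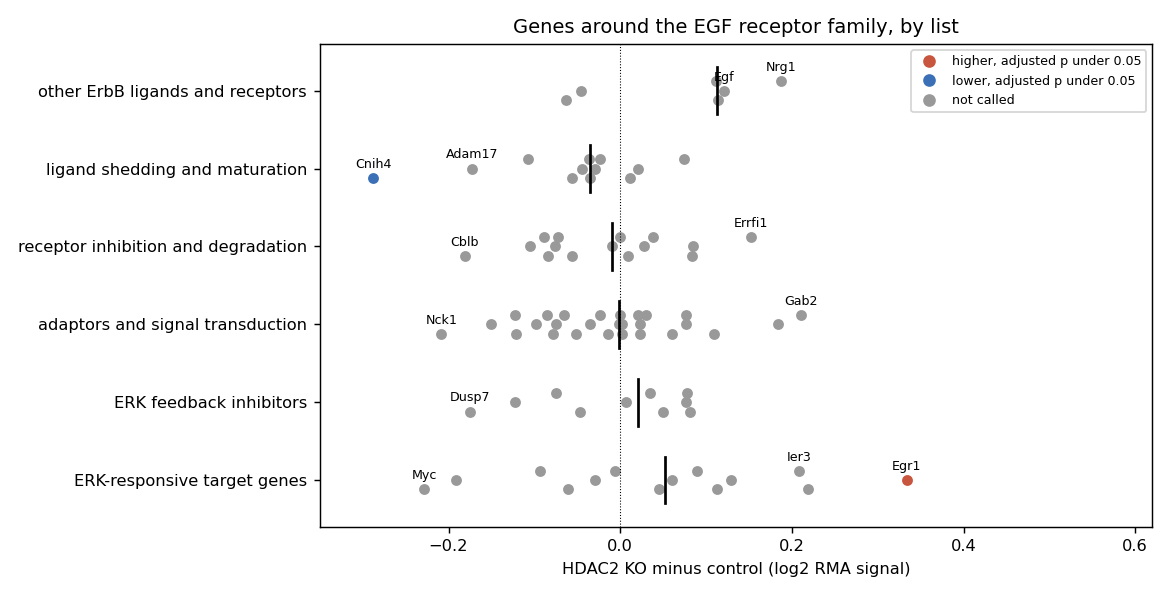
Difference between HDAC2 KO and control (x axis, log2 RMA signal) for 84 genes in 6 lists (y axis), with the list median as a black bar and called genes in colour. Egr1 at 0.33 is the called higher gene and Cnih4 at -0.29 the called lower gene.

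Cell type markers moved with the groups, and in bulk samples fewer cells of a type and less RNA per cell cannot be told apart. Counts of marker calls here and in the next paragraph stand beside 5.09% of all genes called in either direction. Epithelial markers were called higher in 2 of 12 cases, Krt20 (0.48) and Car1 (0.46). The list's mean log2 signal ran from 13.47 to 13.48 on control arrays and from 13.57 to 13.61 on HDAC2 KO arrays. That mean includes Krt20 and Car1, whose differences were the largest of the list. The 10 epithelial markers not called differed by -0.0083 to 0.12, with Epcam at 0.024 and Cdh1 at -0.0053. Markers of stem and deep crypt cells were lower in 2 of 7 cases, Reg4 (-1.18) and Ascl2 (-0.32). Their mean was 9.39 to 9.43 in control and 9.10 to 9.15 in HDAC2 KO. The crypt mean includes Reg4, whose difference was the largest of the list. The 5 crypt markers not called, among them Lgr5 (-0.14) and Axin2 (-0.096), differed by -0.18 to -0.029. Of 11 measured squamous markers, 1 was higher (Sprr1a, 0.89) and 1 lower (Lor, -0.63), and Krt1, Krt4, Krt13 and Trp63 lay below the 40th percentile. The Lor call was lost in 4 of 13 alternatives, without control replicate 1 or 2 or HDAC2 KO replicate 1 or 3 (adjusted p between 0.0549 and 0.0818), and the mean of its probe sets differed by -0.33. The mean of the squamous list was 6.07 to 6.10 in control and 6.10 to 6.18 in HDAC2 KO, with ranges that touched at 6.10. That mean includes Sprr1a, whose difference was the largest of the list. The 9 squamous markers not called differed by -0.12 to 0.13. Smooth muscle markers were higher in 1 of 7 cases (Cnn1, 0.32), with a mean of 11.93 to 11.95 in control and 12.03 to 12.08 in HDAC2 KO.

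Among markers of leukocytes, fat, vessels and mesenchyme, more were called lower than higher. Macrophage and dendritic cell markers were lower in 3 of 8 cases and higher in 1, Cd14. The list mean was 8.42 to 8.45 in control and 8.23 to 8.28 in HDAC2 KO. The lower calls were Ptprc (-0.80), which other leukocytes also express, Lyz2 (-0.32) and Csf1r (-0.29). This mean includes Ptprc, whose difference was the largest of the list. Of the markers not called, Itgax differed by -0.21, Cd68 by -0.12, Adgre1 by -0.022 and the dim Itgam by 0.012. B cell and plasma cell markers were lower in 7 of 8 cases (8.92 to 8.95 against 8.36 to 8.42). T cell markers were lower in 2 of 7 (6.87 to 6.89 against 6.34 to 6.46), Cd3g (-1.84) and Cd3d (-1.37). Of the 5 T cell markers not called, Gzma was higher by 0.29, with groups that did not overlap. Cd3e differed by -0.26, and Cd4, Cd8a and Gzmb by -0.076 to -0.023. Mast cell and basophil markers were lower in 4 of 6 (7.53 to 7.63 against 6.63 to 6.66). Of adipocyte markers, 5 of 6 were lower, Adipoq most (-3.02), with a list mean of 8.70 to 8.79 against 7.18 to 7.31. The remaining marker, Pparg, which colon epithelium also expresses, was higher by 0.35. Endothelial markers were lower in 2 of 6 cases (7.86 to 7.97 against 7.64 to 7.68). Fibroblast markers were lower in 2 of 9 (9.90 to 9.94 against 9.83 to 9.88), Thy1 (-0.35) and Dcn (-0.25), but the median difference of that list was 0.012. Of its markers not called, Fn1 differed by -0.11 and Lum by -0.095. Col1a1, Col1a2, Col3a1, Pdgfra and Pdgfrb went the other way, by 0.012 to 0.077. Of 5 neuron and glia markers, 0 were called by limma or passed an unadjusted p under 0.05 (7.14 to 7.21 against 7.20 to 7.20). Several of these calls were sensitive to the fit. Blocking on the replicate number left 1 lower call of 7 for stem and deep crypt cells, 1 of 6 for endothelium, 1 of 9 for fibroblasts, 1 of 8 for macrophages and dendritic cells and 4 of 8 for B cells and plasma cells, and the higher call of Pparg was lost. Among the genes behind these counts, the calls of Ascl2 (adjusted p = 0.0730), Pecam1 (0.0646) and Dcn (0.0842) were lost under the block. With 1 array left out, lower calls numbered 1 to 2 for stem and deep crypt cells, 1 to 2 for endothelium, 0 to 1 for fibroblasts (0 without control replicate 1 or 3 or HDAC2 KO replicate 1), 1 to 3 for macrophages and dendritic cells and 4 to 5 for B cells and plasma cells. The smooth muscle call was lost without control replicate 1. The Pparg call was also lost with median centring, without cross-hybridising probe sets and whenever 1 array was left out. Cd14 lost its higher call in 4 of 15 alternatives. Dcn lost its call in 8 of 15 alternatives, and the mean of its probe sets differed by -0.085 in place of -0.25. The calls of Krt20, Car1, Sprr1a, Adipoq, Ighm, Cd3g and Mcpt1 held in all alternatives that kept them.

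The part of these shifts in the differences of Hbegf, Tgfa, Epgn, Egr1 and Cnih4 was not tested.

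**Figure D5:**
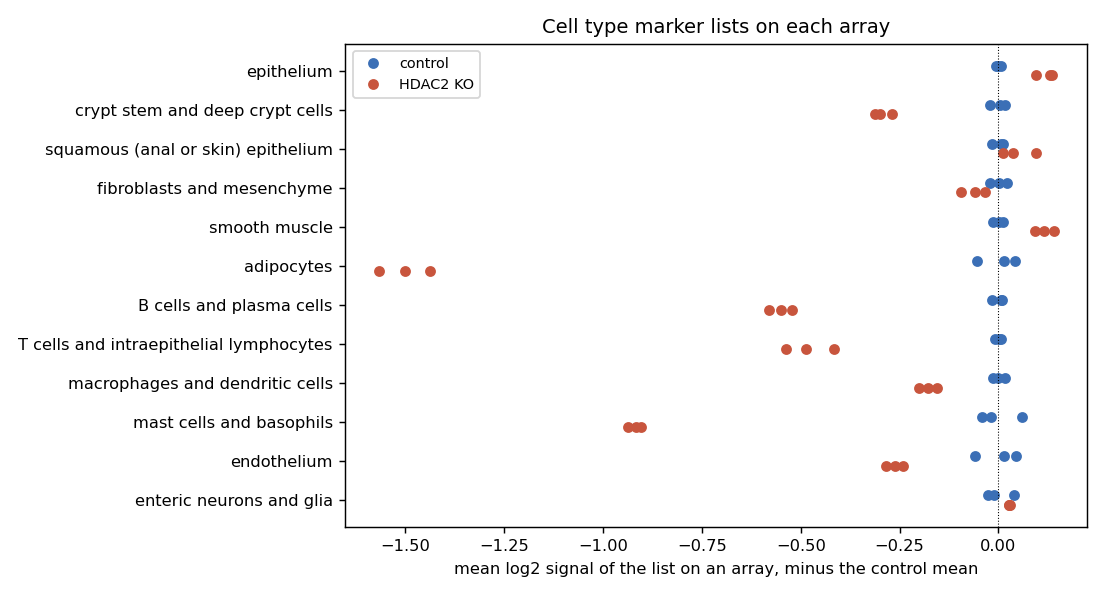
Mean log2 signal of each cell type marker list on each array, minus the mean of the control arrays (x axis), for 12 lists (y axis); blue points are control arrays and red points HDAC2 KO arrays. Adipocyte, mast cell, B cell and T cell lists lie to the left on all HDAC2 KO arrays, and the epithelial and smooth muscle lists slightly to the right.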

How the data were processed

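RNA of 6 colon samples was hybridised to one-colour arrays. The deposited values are log2 signals, which per the submitters' processing notes the authors computed with RMA (background correction, quantile normalization and a summary per probe set). Values ran from 2.39 to 14.6, with array medians of 6.17 to 6.21. No scan dates or detection calls were used here, so batches were not tested, and 3 arrays per group limit the precision.

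After removal of 64 array controls from 45101 probe sets, 45037 were fitted in limma 3.58.1 (R 4.3.3; lmFit and eBayes, with group alone in the model), with Benjamini-Hochberg adjustment over all of them and no signal filter. All adjusted p-values come from limma. The platform annotation of 2016 gave 1 symbol to 34945 probe sets, several to 932 and none to 9160; 34741 matched RefSeq (GRCm38.p6) by Entrez identifier. In gene lists, the probe set of highest mean stood for its gene. The code was tested on simulated data.

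Members and lists were chosen with earlier results of these data known. The text names all members, Hdac2, up to 4 genes of smallest p per pathway list, up to 2 per marker list and up to 3 neighbours on each side of the ligand cluster. Pparg, 4 squamous markers and 5 T cell markers were named after their values were seen. The same holds for further markers of the epithelial, crypt, macrophage and fibroblast lists. Genes of like pattern were to be named for called members, and 0 members qualified by their brightest probe set. Alternatives were 2 signal filters, gene means, further quantile normalization, median centring, an intensity trend, array weights, a replicate block, omission of cross-hybridising probe sets and omission of each array.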

Additional observations from a re-analysis of the deposited data

How the results depend on the processing

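Limma called 0 member probe sets lower in all 15 alternatives run, and 0 were lower at an unadjusted p under 0.05. Member probe sets called higher were 1 with all probe sets and 2 with 1 probe set per gene above the 40th percentile, 2 with the signal filter on probe sets, 3 with a robust intensity trend and 2 with array weights; they ranged from 0 to 2 when 1 array was left out, with 0 without control replicate 1 or control replicate 3. Pathway genes called higher, 1 in the fit of all probe sets, were 4, 4, 5 and 3 in those settings and 2 with gene means, and 0 to 2 when 1 array was left out. Pathway genes called lower, also 1, were 7 with 1 probe set per gene, 3 with the filter on probe sets, 6 with an intensity trend, 4 with the mean of probe sets and 0 to 1 when 1 array was left out. Fewer probe sets enter the adjustment under the filters. Over all probe sets 1712 were called, 3354 with an intensity trend, and 779 to 1466 when 1 array was left out, the lowest without control replicate 1. The Hdac2 difference of -0.21 was called with 1 probe set per gene (adjusted p = 0.00893), with the signal filter (0.0270) and with an intensity trend (0.00300). The cause of these moves was otherwise not tested.

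With the replicate number as a block, 929 probe sets were called, 1 member probe set (Hbegf 1418350_at, adjusted p = 0.0418), 1 pathway gene higher and 0 lower. Deviations from group means of same-numbered arrays correlated with r of 0.086, 0.11 and -0.0071 over all probe sets, and 3 of 6 arrays correlated best with their own number. Over 10916 genes above the 40th percentile the values were 0.21, 0.34 and 0.20, and 6 of 6 arrays did. Since the pairs did not all pass 0.1 over the probe sets fitted, the numbers were not taken as a pairing; the gene values are a hint from the data, not the design.

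Only differences that were not called changed sign. With the mean of probe sets Egfr was 0.0040, Nrg3 0.014 and Elavl4 0.0069. Egfr 1451530_at was 0.0012 after further quantile normalization, 3.66e-05 after median centring and -0.032 to 0.014 when 1 array was left out, and Egfr 1457563_at was -0.013 with array weights. When 1 array was left out, the ranges were -0.044 to 0.018 for Lrig1, -0.021 to 0.046 for Erbb2, -0.0077 to 0.10 for Egfr 1454313_at, -0.044 to 0.062 for Egfr 1457563_at, -0.078 to 0.15 for Btc 1421161_at, -0.13 to 0.037 for Tgfa 1450421_at, -0.010 to 0.18 for Tgfa 1421942_s_at, -0.056 to 0.13 for Erbb3 1452482_at, -0.037 to 0.0078 for Parm1 and -0.13 to 0.0015 for Elavl4.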
